A study of Rattus norvegicus and Bos taurus with 6 samples.

Results

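A set of 10 genes used to mark endothelium was followed through every library of the series: Ptprb, Pecam1, Cdh13, Cyyr1, Mecom, Shank3, Emcn, Vwf, Egfl7 and Adgrl4. The set was fixed by name, but with earlier results of these data known. Each matched exactly 1 row, by symbol in any case, of the 25629 genes listed for the 10x library, of the 38697 listed for each rat Parse library and of the 36075 listed for the cow library. The series held 6 single-nucleus RNA libraries with 1 library per tissue and platform. Rat mesenteric perivascular adipose tissue (mesPVAT) was profiled once with 10x droplets and once with Parse combinatorial barcoding, and subscapular brown fat (BAT), retroperitoneal (RP) fat and the perivascular fat of the thoracic aorta (taPVAT) from rat and subcutaneous flank white adipose tissue (WAT) from cow were profiled with Parse. The rats were male Dahl salt-sensitive animals (SS/HsdMcwiCrl) labelled normal, the cow tissue came from lactating female Holstein cattle, and all tissue was snap frozen. The labels name no treatment and no engineered allele. The age and the number of animals behind each library were not given in the sources used here.

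Endothelial cells line blood and lymphatic vessels. Pecam1 (CD31) is a junctional adhesion molecule, Ptprb (VE-PTP) is a receptor phosphatase that acts on VE-cadherin and the angiopoietin receptor, and Cdh13 (T-cadherin) is a membrane-anchored cadherin that binds adiponectin. Vwf is the clotting glycoprotein stored by endothelium, Egfl7 is a secreted matrix protein, Emcn is a surface sialomucin and Adgrl4 (ELTD1) is an adhesion receptor. Mecom is a zinc finger transcription factor, Shank3 is a scaffold protein best known from synapses, and Cyyr1 is a small cysteine and tyrosine rich membrane protein.

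The 10x library held 5887 nuclei with a median of 161 UMIs, the Parse library labelled mesPVAT 3028 nuclei with 346, the library labelled RP fat 2805 with 213, taPVAT 2708 with 1246, BAT 2699 with 1706 and cow WAT 2297 with 3530. For Parse mesPVAT and RP fat, the paper saw no clear break in the ranked curve of UMIs per barcode. It read this as difficulty in separating nuclei from background RNA. The paper also gave RP fat a higher median of transcripts per cell than mesPVAT, and the most cells. Both orders are opposite to those of the deposited Parse libraries, whereas the cow values equal the paper's. The reason was not tested, so comparisons of mesPVAT with RP fat below rest on the deposited labels. The called barcodes of every library are termed nuclei here. No barcode was shared by any pair of libraries. For the Parse libraries this was fixed beforehand, since the barcode names the first-round well and each sample had its own wells. The adipocyte markers used for naming summed to 6171 CPM in 10x mesPVAT, 5422 in BAT, 5198 in taPVAT, 3151 in Parse mesPVAT, 2485 in cow WAT and 1054 in RP fat. With 1 library per tissue, no difference between tissues could be tested, and every interval below is an exact 95% interval that covers counting error only. Parse samples were spread over 2 or 3 first-round wells, which are aliquots of 1 sample and show technical spread only. In bulk sums over nuclei, fewer endothelial nuclei and less RNA per nucleus cannot be told apart.

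RefSeq promoters on GRCr8 were at hand for 6 of the 10 members, with 7 start sites among them. They were searched for AGGAAG and its reverse complement CTTCCT, a core shared by many ETS factor sites, in the 250 bases before each start. The motif stood in 3 of the 7 windows (Shank3, Emcn and Egfl7), and 29.5% of all 33469 promoters of the same length held it. Shank3 is shown because its window held the most matches (5), Emcn because it alone was called specific in BAT below, and Adgrl4 as a window with no match. Only bases outside the annotated gene are printed, 5′ to 3′ on the plus strand, with the motif in capitals.
Shank3, chr7:122448073-122448322: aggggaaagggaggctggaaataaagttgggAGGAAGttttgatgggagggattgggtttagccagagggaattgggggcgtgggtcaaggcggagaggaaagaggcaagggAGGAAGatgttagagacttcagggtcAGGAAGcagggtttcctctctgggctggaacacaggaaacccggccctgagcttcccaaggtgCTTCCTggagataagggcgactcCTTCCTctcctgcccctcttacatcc
Emcn, chr2:228564289-228564444: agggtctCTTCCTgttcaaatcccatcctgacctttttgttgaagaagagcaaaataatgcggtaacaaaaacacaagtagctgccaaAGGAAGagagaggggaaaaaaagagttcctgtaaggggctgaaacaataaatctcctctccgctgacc
Adgrl4, chr2:243014689-243014926: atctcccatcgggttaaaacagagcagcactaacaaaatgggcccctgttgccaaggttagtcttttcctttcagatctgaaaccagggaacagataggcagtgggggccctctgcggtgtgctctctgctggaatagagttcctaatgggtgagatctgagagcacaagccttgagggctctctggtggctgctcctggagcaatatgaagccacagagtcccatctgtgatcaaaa
A match is a run of letters and was not examined for binding.

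The members together took 1140 CPM (UMIs per 1000000 UMIs of the library, interval 1081 to 1201) in 10x mesPVAT, 3148 (3063 to 3234) in Parse mesPVAT, 2627 (2519 to 2739) in RP fat, 3224 (3180 to 3268) in BAT, 2718 (2673 to 2763) in taPVAT and, for cow WAT, 3903 (3873 to 3933). The 10x library was the lowest by far, and the intervals overlapped between RP fat and taPVAT and between Parse mesPVAT and BAT. Cdh13 carried the largest part of the member UMIs in each of the 6 libraries, between 28.2% in taPVAT and 45.6% in RP fat.

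**Figure D1:**
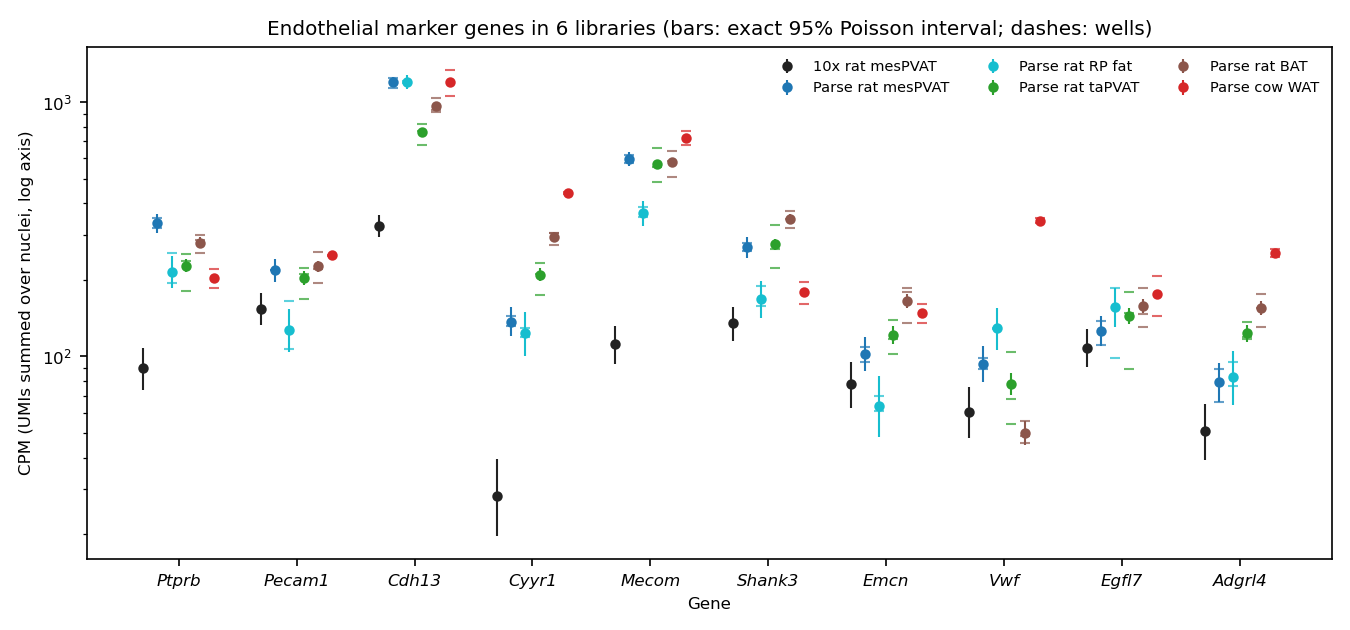
CPM of each member (log axis) in the 6 libraries, with the exact 95% Poisson interval as bars and single Parse wells as dashes. Cyyr1 ranged from 28.3 CPM in 10x mesPVAT to 437.6 CPM in cow WAT, whereas Egfl7 stayed between 108.3 and 175.9 CPM.

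Of the junctional and adhesion genes, Pecam1 stood at 154 CPM in 10x mesPVAT, 218 in Parse mesPVAT, 127 in RP fat, 226 in BAT, 204 in taPVAT and 249.2 in cow WAT, a span of 1.97-fold. BAT, Parse mesPVAT and taPVAT followed each other with overlapping intervals, and so did 10x mesPVAT and RP fat. Ptprb had 89.7 CPM in 10x mesPVAT, 333 in Parse mesPVAT, 215 in RP fat, 280 in BAT, 227 in taPVAT and 203 in cow WAT. Ptprb thus differed 3.71-fold between the 2 libraries labelled mesPVAT, which differ in nuclei isolation (the 10x nuclei were sorted on a DNA stain) as well as in platform. Cdh13 had 325 CPM in 10x mesPVAT, 1195 in Parse mesPVAT, 1198 in RP fat, 967 in BAT, 765 in taPVAT and 1194 in cow WAT. RP fat, Parse mesPVAT and cow WAT could not be ordered for Cdh13 at this depth.

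Of the secreted and surface genes, Vwf had 60.6 CPM in 10x mesPVAT, 93.6 in Parse mesPVAT, 129 in RP fat, 50.0 in BAT, 78.0 in taPVAT and 342 in cow WAT. The cow level was 6.83-fold that of BAT, and all 4 steps among the 5 rat libraries had overlapping intervals. Egfl7 had the narrowest range, from 108 CPM in 10x mesPVAT to 176 in cow WAT, or 1.62-fold. Its wells spread more widely than that within 1 sample, from 89.3 to 179 CPM in taPVAT and from 98.1 to 186 CPM in RP fat. Emcn had 77.6 CPM in 10x mesPVAT, 103 in Parse mesPVAT, 63.9 in RP fat, 165 in BAT, 121 in taPVAT and 148 in cow WAT. Adgrl4 was highest in cow WAT, at 255 CPM, followed by 155 in BAT, 123 in taPVAT, 82.8 in RP fat, 79.1 in Parse mesPVAT and 50.9 in 10x mesPVAT, with neighbours overlapping only for Parse mesPVAT and RP fat.

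Cyyr1 varied more than any other member. It had 28.3 CPM (19.7 to 39.3) in 10x mesPVAT, 137 in Parse mesPVAT, 123 in RP fat, 294 in BAT, 209 in taPVAT and, for cow WAT, 438 (428 to 448), which is 15.5-fold from end to end. Mecom had 112 CPM in 10x mesPVAT, 595 in Parse mesPVAT, 364 in RP fat, 582 in BAT, 571 in taPVAT and 721 in cow WAT. Shank3 was highest in BAT, at 347 CPM, followed by 276 in taPVAT, 268 in Parse mesPVAT, 179 in cow WAT, 168 in RP fat and 135 in 10x mesPVAT. For the rat libraries, CPM was also divided by gene length. Whether UMI counts of these genes depend on length was not tested, and the length itself sets much of the order below. Egfl7, the shortest gene (12.5 kb from end to end in RefSeq, GRCr8), had 8.67 to 12.7 CPM per kb, above every other member in the 5 rat libraries. Cdh13, which spans 1038 kb, had only 0.313 to 1.16 CPM per kb.

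A nucleus was counted as positive for a gene with at least 1 UMI. In cow WAT, 68.1% of nuclei were positive for Cdh13 but 31.1% for Egfl7, and in 10x mesPVAT the highest share was 4.60%, also for Cdh13. Depth sets such shares, so nuclei were thinned to 200 UMIs and shallower ones left out (3788 of the 10x nuclei, 476 of Parse mesPVAT, 1302 of RP fat and no nuclei elsewhere). Thinned, nuclei positive for at least 2 members made up 4.14% (3.33 to 5.09) in 10x mesPVAT, 10.9% (9.67 to 12.1) in Parse mesPVAT, 6.92% (5.69 to 8.32) in RP fat, 19.4% (17.9 to 21.0) in BAT, 13.8% (12.5 to 15.1) in taPVAT and, for cow WAT, 15.6% (14.1 to 17.1). Without thinning the share was 68.5% in cow WAT, 41.8% in BAT, 41.1% in taPVAT, 25.2% in Parse mesPVAT, 12.5% in RP fat and 3.97% in 10x mesPVAT. The order of BAT and cow WAT was thus opposite on the 2 scales, while 10x mesPVAT was lowest on both. Thinned to 1000 UMIs, with shallower nuclei left out, cow WAT (40.8%) was again above BAT (30.4%). The order of these libraries thus changed with the depth chosen, but the nuclei kept changed as well. At 1000 UMIs, 1929 of 2699 BAT nuclei and all 2297 cow nuclei were kept. The largest endothelial-like cluster of BAT, described below (344 nuclei), had a median of only 900.5 UMIs. Depth and the loss of nuclei cannot be told apart here.

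**Figure D2:**
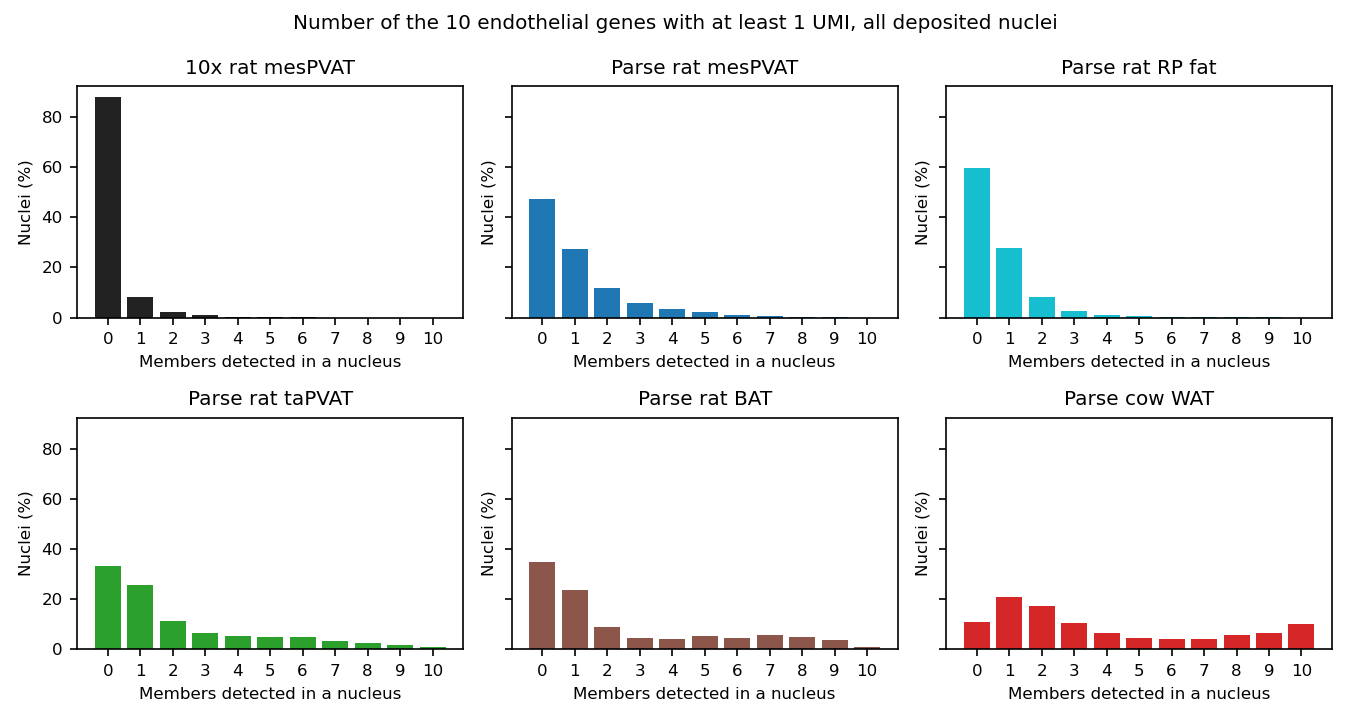
Share of all deposited nuclei (%) by the number of members with at least 1 UMI, 1 panel per library. Cow WAT has a second rise at its right end, with 229 nuclei positive for all 10 members, and BAT one around 7 members (153 nuclei), whereas the 10x, mesPVAT and RP fat panels fall from 0.

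In the unthinned data the members gathered in the same nuclei in the deeper libraries. In cow WAT, 92 nuclei held 7 members and 229 held all 10. In BAT, 110 nuclei held 4 members and 153 held 7, and only 23 held all 10. taPVAT had a plateau, with 141 nuclei at 4 members, 135 at 5 and 133 at 6. RP fat had 29 nuclei with 4 members and 1 with 9, with no second rise.

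To set co-detection against depth, nuclei were ranked by UMIs and split into 10 groups, and the number positive for both genes was divided by the number that independent genes would give within those groups. Over the 45 pairs of members the observed count exceeded the expected one in 45 pairs in each of 10x mesPVAT, Parse mesPVAT, taPVAT, BAT and cow WAT, and in 43 pairs in RP fat. The lower limit of the interval was above 1 in 41, 42, 45, 45, 44 and 8 pairs (10x mesPVAT, Parse mesPVAT, taPVAT, BAT, cow WAT and RP fat). The median ratio was 5.36 in 10x mesPVAT, 1.75 in Parse mesPVAT, 1.46 in RP fat, 1.96 in BAT, 2.15 in taPVAT and 1.49 in cow WAT. Thinned to 200 UMIs it was 6.36, 2.20, 1.3, 2.85, 3.01 and 2.55 in the same order, and in RP fat 27 of 45 pairs then exceeded the expected count, with 2 lower limits above 1. Nuclei of 1 library share its free RNA, and depth was matched only in groups, so these ratios are descriptions.

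The pair with the highest ratio was not the same in every library, but other pairs came close. Pairs with Cyyr1 reached 2.69 in taPVAT and 2.67 in BAT, inside the intervals of the top pairs. In taPVAT and BAT it was Emcn with Adgrl4, found together in 152 nuclei where 55.5 were expected in taPVAT (ratio 2.74, 2.32 to 3.21) and in 279 where 103.6 were expected in BAT (2.69, 2.39 to 3.03). In cow WAT and RP fat it was Pecam1 with Egfl7, at 552 nuclei against 292 (1.89, 1.73 to 2.05) and 19 against 5.98 (3.18, 1.91 to 4.96). In Parse mesPVAT it was Pecam1 with Shank3, at 106 against 43.9 (2.41, 1.98 to 2.92), and in 10x mesPVAT Cyyr1 with Mecom, at 11 against 0.663 (16.6, 8.28 to 29.7). The weakest pair held Cdh13 or Vwf in each of the 6 libraries. A gene positive in most nuclei, as Cdh13 was in cow WAT (68.1%), cannot reach a high ratio. Cdh13 with Vwf had a ratio of 1.05 (0.978 to 1.14) in cow WAT, and Mecom with Vwf 1.3 (1.08 to 1.54) in taPVAT.

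**Figure D3:**
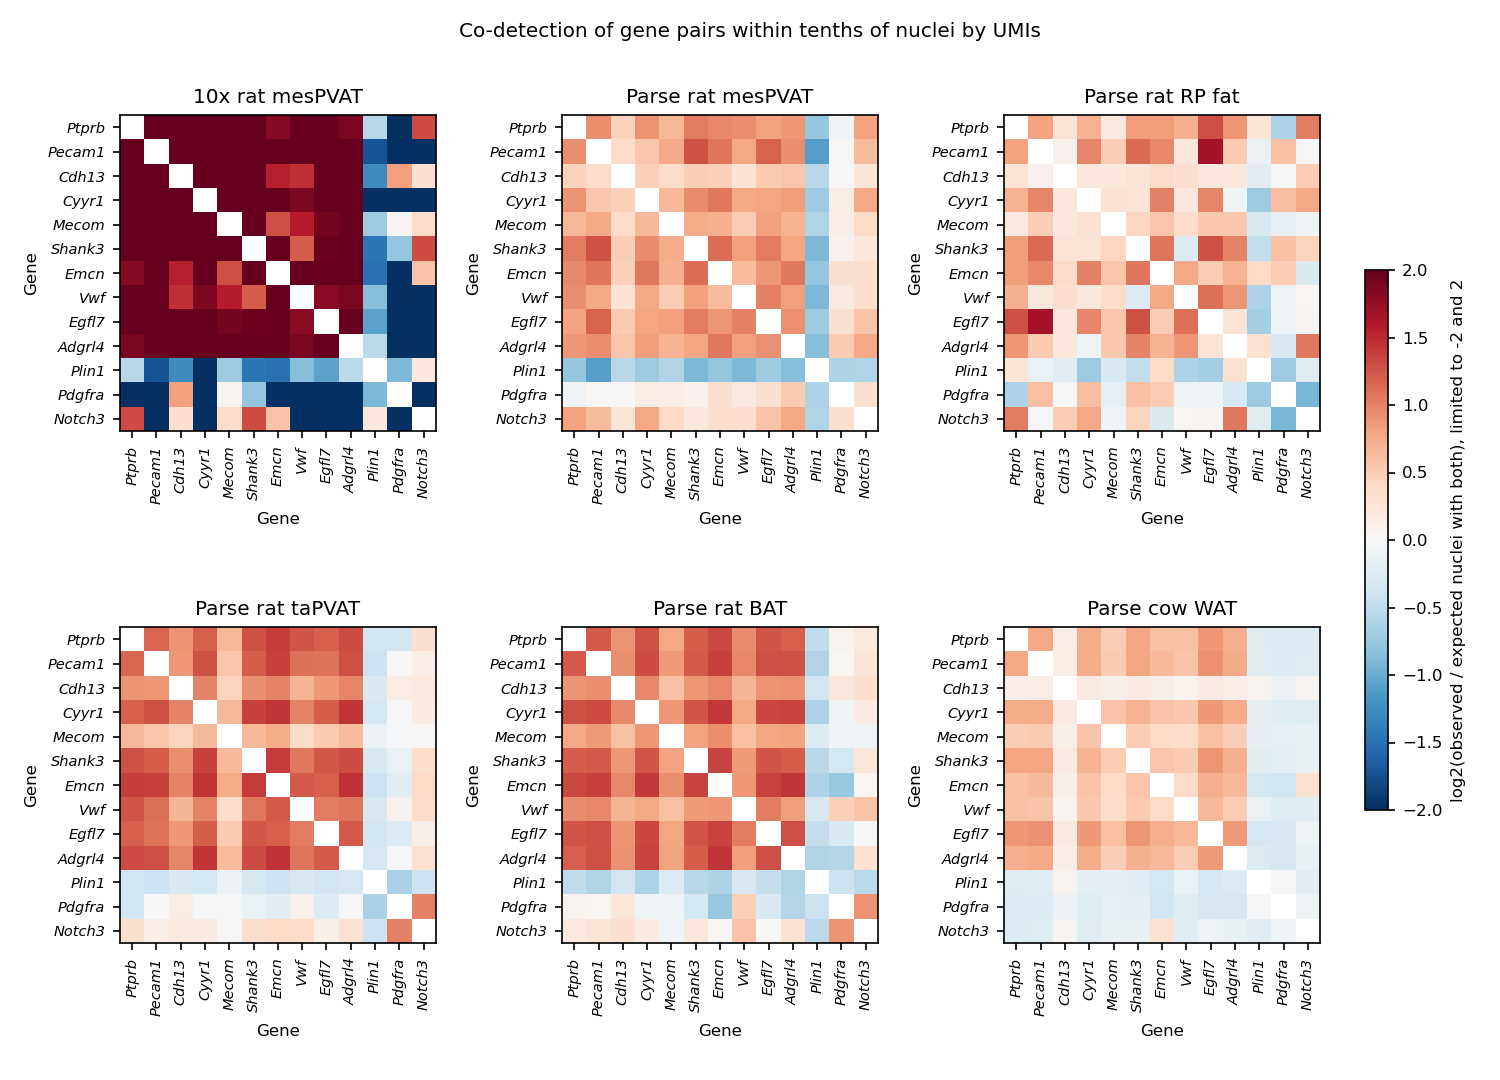
Observed over expected number of nuclei positive for both genes of a pair on a log2 colour scale with red above and blue under the expected number, 1 panel per library. The 45 member pairs are red except for 2 in RP fat, the Cdh13 row of cow WAT is the palest of that panel, and the Plin1 row is blue for all members in 10x mesPVAT, Parse mesPVAT, taPVAT and BAT.

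Plin1, Pdgfra and Notch3 mark adipocytes, adipocyte stem and progenitor cells (ASPC) and mural cells. Summed over the 10 members, the count of member and Plin1 together was 0.450 of the expected one in 10x mesPVAT, 0.610 in Parse mesPVAT, 0.863 in RP fat, 0.718 in BAT, 0.814 in taPVAT and 0.884 in cow WAT. A nucleus with several members enters such a sum once for each, so the sums carry no interval. Counting once each nucleus with at least 2 members, the ratio with Plin1 was 0.246 (0.118 to 0.453) in 10x mesPVAT, 0.580 (0.489 to 0.682) in Parse mesPVAT, 0.759 (0.699 to 0.823) in BAT and 0.822 (0.757 to 0.890) in taPVAT, all with intervals under 1. The intervals held 1 in RP fat (0.772, 0.544 to 1.06) and cow WAT (0.957, 0.852 to 1.07). Thinned to 200 UMIs, the nuclei counted once gave 0.344 (0.241 to 0.476) in taPVAT and 0.286 (0.211 to 0.379) in BAT, with 3 nuclei in RP fat and 4 in cow WAT (0.380, 0.0784 to 1.11, and 0.658, 0.179 to 1.69). Cdh13 with Plin1 was the cow exception at full depth, at 333 nuclei against 317 (1.05, 0.942 to 1.17). For Pdgfra, counted once, the interval held 1 in each of the 6 libraries, from 0.356 (0.00900 to 1.98) in 10x mesPVAT to 1.07 (0.862 to 1.32) in taPVAT. The sums over members with Pdgfra were 0.558 in 10x mesPVAT, 1.08 in Parse mesPVAT, 1.04 in RP fat, 0.937 in BAT, 0.959 in taPVAT and 0.853 in cow WAT. In cow WAT, 7 of the 10 single pairs with Pdgfra had an upper limit under 1.

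With Notch3, the nuclei with at least 2 members counted once gave ratios of 0.941 (0.114 to 3.40) in 10x mesPVAT, 1.25 (0.969 to 1.58) in Parse mesPVAT, 1.53 (1.01 to 2.20) in RP fat, 1.09 (0.897 to 1.31) in BAT, 1.13 (0.936 to 1.35) in taPVAT and, for cow WAT, 1.02 (0.928 to 1.12). Only the interval of RP fat, from 28 nuclei, lay above 1, and it held 1 after thinning to 200 UMIs (1.45, 0.298 to 4.22, from 3 nuclei). The sums over members were 1.38 in Parse mesPVAT, 1.36 in RP fat, 1.13 in BAT, 1.16 in taPVAT and, for cow WAT, 0.935, and thinned they were 1.65, 1.02, 0.664, 0.592 and 0.786. In taPVAT the thinned nuclei counted once gave 0.264 (0.0320 to 0.954), from 2 nuclei. Emcn with Notch3 was the highest of the cow pairs with Notch3, with 286 nuclei where 233 were expected (1.23, 1.09 to 1.38).

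Specificity was read from clusters made without the 10 members and named from other marker genes. A member was called specific when its CPM in endothelial-like nuclei was at least 3 times that in each other named class of at least 50 nuclei, with 0 UMIs counted as 3. By this rule 10 of 10 members were specific in 10x mesPVAT, where 2.61% of all tested genes were, 8 of 10 in Parse mesPVAT (2.53% of genes), 10 of 10 in taPVAT (0.796%), 1 of 10 in BAT (0.384%) and 7 of 10 in cow WAT (2.07%). The classes compared differed. They were ASPC-like and adipocyte-like in Parse mesPVAT, these and macrophage-like in 10x mesPVAT, these and mural-like in BAT and cow WAT, and also lymphocyte-like in taPVAT, so both mesPVAT libraries had no mural-like class. RP fat gave no endothelial-like cluster and so no count. Each member was specific in at least 2 of the 5 libraries, Cdh13 and Vwf in 2 and the other 8 in 4. The call used the ratio alone, and the intervals of several passing ratios reached under 3. In Parse mesPVAT these included Cyyr1 (3.54, 1.99 to 6.58) and Emcn (3.62, 1.88 to 7.44). In taPVAT they included Vwf (3.36, 1.61 to 8.45) and Adgrl4 (3.12, 1.80 to 5.9). Such passes cannot be told from near misses, so the split between members is not firm. Scrublet called at most 7 doublets in a library, so the calls removed few nuclei. How many doublets remained is not known. Their part in these counts was not tested beyond the alternatives given in the closing section.

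**Figure D4:**
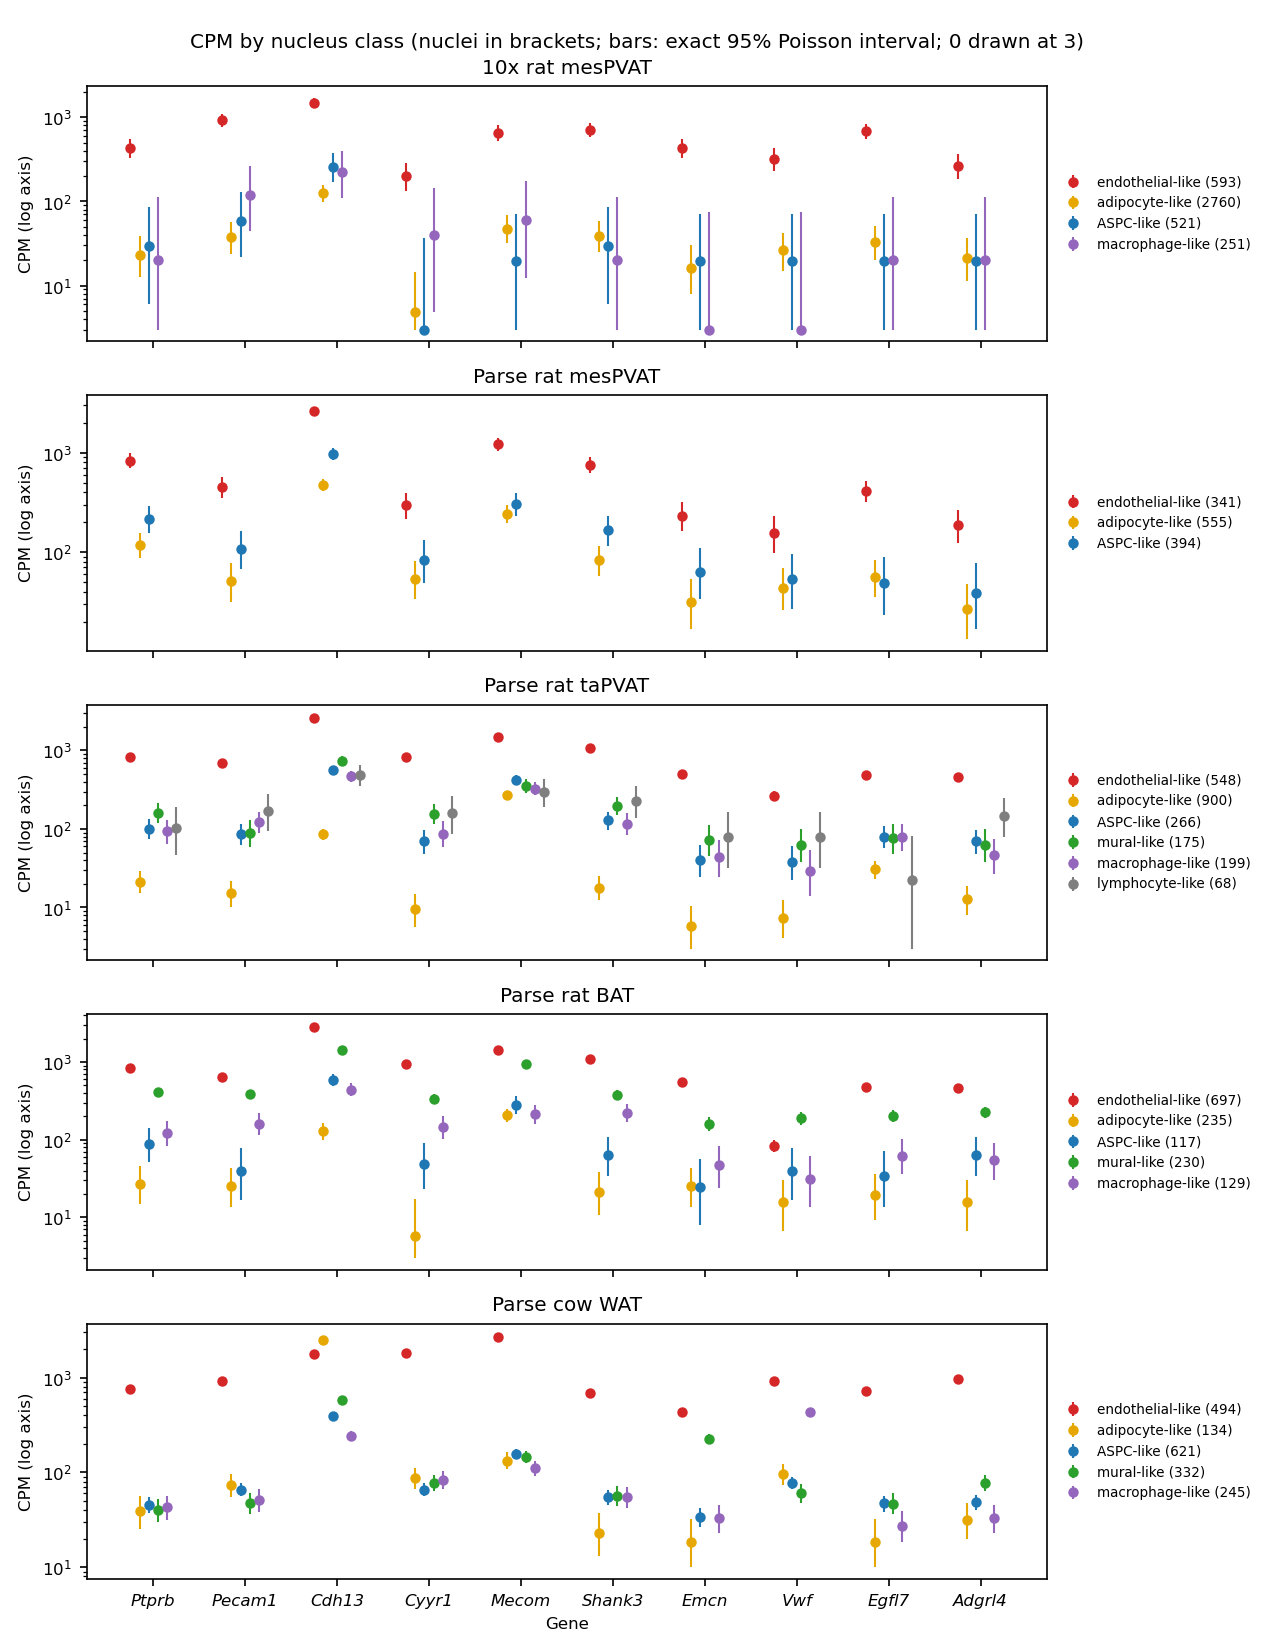
CPM of each member (log axis) by class of nuclei in the 5 libraries that had endothelial-like clusters, with the exact 95% Poisson interval as bars. In BAT the mural-like points lie close under the endothelial-like ones and above for Vwf, and in cow WAT Cdh13 is highest in adipocyte-like nuclei.

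In 10x mesPVAT, 593 endothelial-like nuclei had 682 CPM of Egfl7, against 32.7 in adipocyte-like nuclei, the next class (20.8-fold, 12.8 to 35.6). Shank3 followed at 711 against 39.3 CPM (18.1-fold, 11.5 to 29.6). Emcn and Vwf had no UMI in the macrophage-like nuclei, so their ratios of at least 7.07 and at least 5.30 were taken against a floor of 3 counts (exact lower limits against 0 UMIs were 5.57 and 4.14). Cyyr1 had the lowest ratio there, 4.95 (1.25 to 42.9), from 2 UMIs in macrophage-like nuclei. Emcn and Vwf fell to 2.60 and 2.92 without the cluster led by Prox1, described below, again against the floor of 3 counts. The remaining endothelial-like nuclei had 157 CPM of Emcn and 176 of Vwf. Clusters of the other named classes had at most 34.2 and 39.9 CPM. Of the endothelial-like nuclei 22.6% were positive for Cdh13 against 2.46% of adipocyte-like ones, at median depths of 195 and 183 UMIs.

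In Parse mesPVAT the ratios were lower, from 2.69 for Cdh13 to 7.34 for Egfl7. Egfl7 had 410 CPM in the 341 endothelial-like nuclei and 55.8 in adipocyte-like ones. Cdh13 missed the limit with 2604 CPM against 969 in ASPC-like nuclei, and Vwf with 154 against 53.8 (2.85, 1.35 to 6.45). Adipocyte-like nuclei of that library were positive for Cdh13 in 23.6% and for Mecom in 13.9%, at a median of 583 UMIs, against 53.7% and 32.8% of endothelial-like nuclei at 356. The 1721 unnamed nuclei had 1365 CPM of Cdh13, 736 of Mecom and 287 of Pecam1. Counting them as another class left 0 members specific. Among them was a cluster of 286 nuclei with raised blood endothelial markers and with Eln, Myh11 and Notch3 among its leading genes, which held 1387 CPM of Mecom, against 1209 in endothelial-like nuclei, and 597 of Pecam1.

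In taPVAT the ratios ran from 3.12 for Adgrl4 to 6.31 for Emcn. Emcn had 498 CPM in 548 endothelial-like nuclei, 5.81 in adipocyte-like ones and 79.0 in the 68 lymphocyte-like ones, its next class. Adipocyte-like nuclei lay far lower for every member except Mecom, which had 1484 CPM in endothelial-like, 422 in ASPC-like and 274 in adipocyte-like nuclei. Mecom was detected in 31.4% of adipocyte-like nuclei, against 1.11% for Emcn. An unnamed cluster of 66 nuclei led by P2ry10, Myo1g and Itga4, genes of white blood cells, had 726 CPM of Pecam1 (521 to 986), as high as the 697 CPM of endothelial-like nuclei, with Emcn at 0 UMIs. The other members had between 17.7 and 266 CPM in that cluster.

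In BAT the next class was mural-like for each of the 10 members. Emcn was specific, at 552 CPM in 697 endothelial-like nuclei against 159 in 230 mural-like ones (3.48-fold, 2.82 to 4.33). Shank3 (2.88), Cyyr1 (2.81), Egfl7 (2.37), Adgrl4 (2.03), Ptprb (2.03), Cdh13 (1.96), Pecam1 (1.69) and Mecom (1.54) were higher in endothelial-like nuclei but under the limit. Vwf was lower there, with 83.7 CPM against 188 (ratio 0.447, 0.343 to 0.581). The mural-like nuclei formed 2 clusters. One of 98 nuclei led by Eln, P2rx1 and Myh11 had 338 CPM of Vwf (278 to 408) and 1372 of Mecom, and the 16 blood endothelial marker genes summed to 2110 CPM in it. Its median depth was 2673 UMIs, against 1706 in the library. The other of 132 nuclei led by Neb, Abcc9 and Postn had 23.4 CPM of Vwf (9.42 to 48.2) and 455 of Mecom, with 1358 CPM of those marker genes. Without the cluster led by Eln, 6 members were specific in BAT, and without the endothelial-like cluster led by Bcl6b, which had 2643 CPM of Plin1, 5 were. The Bcl6b-led cluster had 1547 CPM of the blood endothelial marker genes, less than the Eln-led one. In Parse mesPVAT the cluster with Eln and Myh11 among its leading genes stayed unnamed, so it did not enter the count of that library. The BAT count was 10 when each nucleus was named alone and 0 at a coarser clustering (Leiden resolution 0.5). The share over all genes was not computed for these changed settings or without the left-out clusters. Against adipocyte-like nuclei alone the BAT contrast was wide, with Cyyr1 at 948 CPM against 5.83. That class held only clusters of 154 and 81 nuclei. Unnamed clusters of 661, 334 and 175 nuclei had 3436, 3301 and 3422 CPM of Plin1 and were left out. Their Cyyr1 levels were 4.22, 38.75 and 16.3 CPM.

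In cow WAT, Cyyr1 (20.8-fold, 16.2 to 27.3), Mecom (17.2), Ptprb (16.6), Egfl7 (15.4), Pecam1 (12.7), Adgrl4 (12.4) and Shank3 (12.2) were specific with wide margins. Cyyr1 had 1824 CPM in 494 endothelial-like nuclei and 87.6 in adipocyte-like ones. The other 3 each had a class of their own beside endothelium. Cdh13 had 2485 CPM (2370 to 2605) in the 134 adipocyte-like nuclei, above the 1771 CPM in endothelial-like nuclei. Adipocyte-like nuclei had 86.1 to 470 CPM in the rat libraries that had such a class. RP fat had none, and its unnamed cluster of 221 nuclei led by Plin1 had 990 CPM of Cdh13. Vwf had 436 CPM in macrophage-like nuclei against 918 in endothelial-like ones. That came from 1 of 2 macrophage-like clusters, 143 nuclei led by ITGAM and VSIG4 with 593 CPM (539 to 651), whereas the cluster led by MRC1 and F13A1 had 85.1 (57.0 to 122). Emcn had 226 CPM in mural-like nuclei, of which the cluster led by ANO3 and RERGL had 376 (327 to 430), close to the 429 CPM of endothelial-like nuclei, and that led by ACTA2 and DES 44.2 (19.1 to 87.0). The 139 unnamed cow nuclei included 40 with markers of endothelial and mural cells and a median of 8814 UMIs, and counting the unnamed nuclei as another class left 0 members specific.

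Clusters could be avoided altogether. For each member, its CPM in nuclei positive for at least 2 of the other 9 members was divided by its CPM in nuclei with none of them. In RP fat this gave 1.32 (1.12 to 1.55) for Cdh13, 1.42 (0.848 to 2.35) for Cyyr1, 1.44 (1.08 to 1.90) for Mecom and 2.21 to 2.73 for Shank3, Adgrl4, Emcn, Vwf, Pecam1 and Ptprb. Only Egfl7 passed 3 there, at 5.14 (3.26 to 8.36), with 359 CPM against 69.8. With at least 4 of the other members asked for, 8 of the 10 passed 3 in RP fat. That group held only 24 to 47 nuclei, and the share over all genes was not computed for it. The count therefore has no background to be read against. Summed member CPM ranged only from 1954 to 3561 over the 19 clusters of RP fat, against 413 to 14089 over the 15 clusters of taPVAT. The median ratio over members was 16.7 in 10x mesPVAT, 4.10 in Parse mesPVAT, 2.38 in RP fat, 21.6 in BAT, 10.7 in taPVAT and 6.85 in cow WAT. Depending on the member, 1287 to 1560 cow nuclei, 946 to 1092 in taPVAT and 993 to 1122 in BAT held at least 2 others. Endothelial-like nuclei numbered only 494, 548 and 697 there. In cow WAT, 67.8% of the macrophage-like cluster of 143 nuclei held at least 2 members. The group was thus not purely endothelial, and these ratios do not measure endothelial specificity. Ratios of at least 3 were found for 10 members in each of 10x mesPVAT, taPVAT and BAT, 8 in Parse mesPVAT, 7 in cow WAT and 1 in RP fat, where all tested genes reached it in 7.77%, 4.35%, 7.83%, 2.15%, 4% and 1.12% of cases for nuclei with at least 2 of the 10 members.

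Single members stood out on this measure. In BAT, Cyyr1 had 591 CPM in nuclei with at least 2 others and 11.6 in nuclei with none (50.9-fold, 33.2 to 82.5), and Emcn 333 against 7.78 (42.7-fold, 25.4 to 78.5). Vwf reached 8.93 in BAT, although it was not specific by class there. Mecom was lowest in taPVAT (3.67) and BAT (7.61), with 263 and 149 CPM in nuclei that lacked every other member. Cdh13 was lowest in cow WAT (1.36, 1.29 to 1.43) and in Parse mesPVAT (2.36). In cow nuclei positive for Plin1 and for fewer than 2 other members Cdh13 had 2107 CPM, more than the 1278 CPM in nuclei with at least 2 others. Cow Emcn had 151 CPM in Notch3-positive nuclei of that kind and 165 with at least 2 others (ratio 1.09).

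Members also separated kinds of endothelial-like nuclei. An endothelial-like cluster with Prox1, the defining transcription factor of lymphatic endothelium, among its leading genes was present in 10x mesPVAT (320 nuclei), taPVAT (25) and cow WAT (13). Prox1 had 2040, 1692 and 798 CPM in them. In 10x mesPVAT that cluster was named from blood endothelial markers by the naming rule, so it is called here by its leading gene. Mecom was low in each of the 3, at 100 CPM against 1627 in the other endothelial-like nuclei of 10x mesPVAT (ratio 0.0617, 0.0272 to 0.123), 376 against 1530 in taPVAT (0.246, 0.134 to 0.414) and, for cow WAT, 118 against 2751 (0.0430, 0.0117 to 0.110). Cyyr1 was low as well, at 89.2 against 392 CPM (0.228, 0.0867 to 0.539), 80.6 against 847 (0.0952, 0.0196 to 0.279) and 29.6 against 1853 (0.0160, 4.04e-04 to 0.0890). RP fat also had a cluster led by Prox1, of 124 nuclei with 1066 CPM of Prox1, but no other lymphatic marker was raised in it and it stayed unnamed. RP fat had no endothelial-like nuclei to set it against. Against all other clustered nuclei of RP fat, it had 242 CPM of Cyyr1 against 114 (2.14, 0.989 to 4.12), 364 of Mecom against 367 (0.991, 0.547 to 1.66) and 412 of Egfl7 against 135 (3.06, 1.72 to 5.15). These ratios have another denominator than those above and cannot be compared with them.

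**Figure D5:**
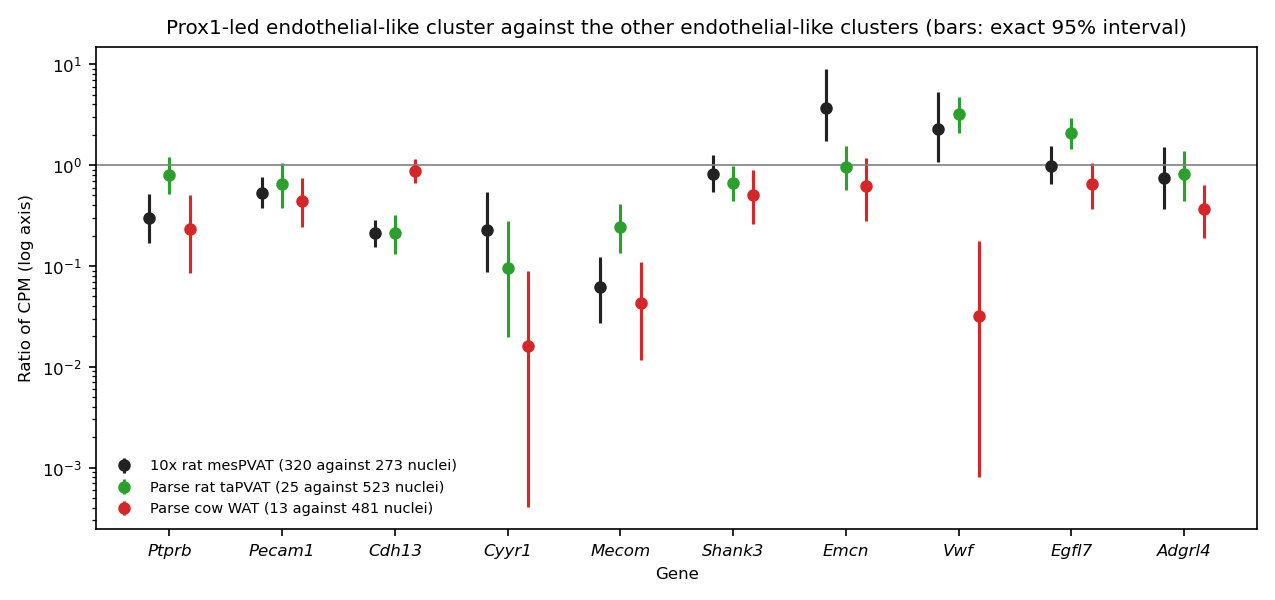
Ratio (log axis) of each member's CPM in the Prox1-led cluster to that in the other endothelial-like nuclei of the library, with exact 95% intervals. Cyyr1 and Mecom lie under 1 in the 3 libraries drawn (RP fat, whose Prox1-led cluster was not endothelial-like, is not drawn), and Vwf above 1 in both rat libraries and under it in cow WAT.

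Vwf was high in the Prox1-led cluster of both rat libraries, at 401 against 176 CPM in 10x mesPVAT (2.28, 1.08 to 5.37) and 779 against 245 in taPVAT (3.19, 2.09 to 4.71). It was low in cow WAT, at 29.6 against 932 CPM (0.0317, 8.03e-04 to 0.177), from 1 UMI in 13 nuclei. Species, depot, sex and library differ together here and cannot be told apart. Cdh13 was low in the Prox1-led cluster of both rat libraries (0.211 and 0.210) but 0.883 (0.661 to 1.16) in cow WAT. Emcn was high in 10x mesPVAT, at 580 against 157 CPM (3.70, 1.74 to 9.01), with intervals that held 1 in taPVAT and cow WAT. Egfl7 had 0.991 in 10x mesPVAT, 2.09 (1.44 to 2.94) in taPVAT and, for cow WAT, 0.650 (0.370 to 1.06). Pecam1 and Shank3 stayed between 0.441 and 0.819 in the 3 libraries.

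Cow WAT had 4 further endothelial-like clusters, and several members differed among them by more than counting error. Mecom was highest in the 49 nuclei led by GJA5, IGFBP3 and BMX, at 4392 CPM (4123 to 4674) against 1796 to 2916 in the others. GJA5, a gap junction gene of arterial endothelium, had 482 CPM there. Vwf was highest in the 112 nuclei led by SERTM1, PLVAP and TLL1, at 1487 CPM (1375 to 1606), and lowest in those led by GJA5, at 371 (296 to 460). SELP, a venous marker, had 70.5 CPM in the PLVAP group. Levels of the other arterial and venous markers are not given here, so neither group is called arterial or venous. Emcn also had its highest level in the PLVAP group, at 548 CPM (481 to 622), with an interval that overlapped that of the group led by KDR. Adgrl4 had 1572 CPM (1446 to 1705) in the 68 nuclei led by KDR and BCL6B and 446 to 1091 in the others. Cyyr1 was highest in the 252 nuclei led by ABLIM3, CCDC85A and BTNL9, at 2254 CPM (2166 to 2345). Pecam1 ranged from 796 to 1169 CPM and Egfl7 from 609 to 774.

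The genes most like the members were ranked by the ratio of CPM in nuclei with at least 2 members to CPM in nuclei with none. In BAT they were Kank3 (150), C1qtnf9 (83.7), Tie1 (78.0), Dipk2b (72.0) and Slc26a10 (68.8), with only 0.563 CPM of Kank3 and of C1qtnf9 in nuclei with none. In taPVAT they were Btnl9 (42.8), Sox17 (42.2), Nos3 (37.6), Rasip1 (35.7) and Clec1a (24.4), and in Parse mesPVAT Mmrn2 (9.32), Kank3 (9.14), Rasip1 (8), Notch4 and Adcy4 (both 7.30). Cow WAT gave ROBO4 (19.3), SLC7A8 (14.4), RASIP1 (13.7), CCDC188 (12.6) and CDH5 (12.1), and RP fat Sh2d3c (8.08), Itgb4 (6.67), Nos3 (5.75), Il33 (3.46) and Nucb1 (3.37). In 10x mesPVAT they were Pde1c (28.3), Kctd16 (26.9), Rasgrf2 (26.4), Sncaip (24.6) and Cadps2 (22.5), none of which is on the list of 16 blood endothelial markers. Sox17 in taPVAT also had only 0.8485 CPM in nuclei with none. Ratios on so few UMIs are unsteady, and no interval was computed for this ranking.

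Those 16 genes, among them Cdh5, Kdr and Tie1, reached a ratio of 3 in 11 of 11 tested genes in 10x mesPVAT, 10 of 13 in Parse mesPVAT, 3 of 13 in RP fat, 13 of 13 in BAT, 15 of 15 in taPVAT and 13 of 16 in cow WAT. Their median ratio was 26.9 in BAT, 12.0 in taPVAT, 11.8 in 10x mesPVAT, 5.62 in cow WAT, 4.43 in Parse mesPVAT and 2.30 in RP fat, where the median over all tested genes lay between 0.912 and 1.07. In RP fat the 3 were Tie1, Rasip1 and Nos3. None of the ASPC markers reached 3 in any library, and of the mural markers 4 of 11 did in BAT (Myh11, Acta2, Tagln and Cnn1), 1 of 9 in RP fat (Notch3) and none elsewhere. In cow WAT 1 of 9 adipocyte markers (LIPE, median ratio of the list 2.03) and 1 of 9 lymphocyte markers (CD247, median 0.718) did, and no marker of these 2 lists did in the rat libraries. Of the lymphatic endothelial markers, 3 of 4 reached 3 in 10x mesPVAT, 3 of 5 in taPVAT and 2 of 4 in BAT. None did in Parse mesPVAT (0 of 5), RP fat (0 of 4) or cow WAT (0 of 6). Of all tested genes, 7.77% reached 3 in 10x mesPVAT, 2.15% in Parse mesPVAT, 1.12% in RP fat, 7.83% in BAT, 4.35% in taPVAT and 4% in cow WAT.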

How the data were processed

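The deposited counts were unique molecular identifiers (UMIs) per gene and nucleus. Per the study's methods, the authors made them with Cell Ranger (10x) and with split-pipe on GRCr8 (rat Parse) and ARS-UCD1.3 (cow Parse), and the deposited matrices were already limited to called nuclei. For the 10x library the methods name Rnor_6.0, which gene identifiers in the deposited list appear to postdate, so that build is uncertain. The deposited cell metadata served to check the UMI totals and gave the well and sublibrary of each Parse nucleus. The table of gene lengths and promoters came from RefSeq.

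The 10 members, the marker lists and the comparisons were chosen with earlier results of these data known. CPM were UMIs summed over all deposited nuclei, with exact 95% Poisson, binomial or conditional intervals (scipy 1.17.1). For classes, the study's limits were applied within each library (100 to 15000 UMIs, at most 4500 genes, at most 3% mitochondrial UMIs, 5 median absolute deviations), and nuclei were clustered with scanpy 1.11.5 without the members (2000 variable genes, 30 components, 15 neighbours, Leiden resolution 1.0). A cluster took the class with the largest share of its markers raised (CPM 2 or more times the other clusters' median, in at least 5% of nuclei, at least 10 UMIs), if these were at least 3 markers and 0.3333 of the list, unless another class led its 10 leading genes. A rule added after the clusters were seen left unnamed any cluster with markers of 2 classes and at least 2 times the library's median depth. Named genes were the members, Plin1, Pdgfra, Notch3, the marker lists and the 5 non-members per library with the largest ratio (at least 50 UMIs and a symbol). Genes with at least 20 UMIs were the background. Other genes named as leading a cluster were chosen after their values were seen. The scripts were tested on simulated data. No p-value was computed, since each group is 1 library.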

Additional observations from a re-analysis of the deposited data

How the results depend on the processing

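RP fat and 10x mesPVAT had the fewest UMIs a nucleus. Parse mesPVAT gave no endothelial-like cluster at Leiden resolution 0.5, so that value is missing. RP fat gave one only when each nucleus was named alone, with 2 members specific. No paired analysis was possible because each group is 1 library. Alternatives on unnamed nuclei, 2-class clusters and left-out clusters, the one on 4 other members and the one counting nuclei once were chosen after seeing the data. The cause of each change was not tested unless the setting itself gives it.

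Of 28 alternatives for the summed CPM, 14 stayed within the counting interval. With at least 500 UMIs a nucleus it was 1379 in 10x mesPVAT, 3256 in Parse mesPVAT and 3058 in RP fat, and with the study's filters 4342 in cow WAT. Leaving out the gene with the most UMIs gave 3325 in Parse mesPVAT, 3674 in BAT, 3084 in taPVAT and 4391 in cow WAT. Sublibraries 1 and 2 alone gave 2660 and 2780 in taPVAT, 3173 and 3274 in BAT, and 3796 and 3997 in cow WAT. The share with at least 2 members was 25.6% in 10x mesPVAT, 56.6% in Parse mesPVAT, 60.2% in RP fat, 30.4% in BAT, 31.7% in taPVAT and 40.8% in cow WAT when thinned to 1000 UMIs, which kept 43 nuclei of 10x mesPVAT, 88 of RP fat, 320 of Parse mesPVAT and 1589 to 2297 of the others. With no thinning it was 25.2% in Parse mesPVAT, 12.5% in RP fat, 41.8% in BAT, 41.1% in taPVAT and 68.5% in cow WAT.

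The share of all genes called specific was computed only at the main setting. Counts of specific members at other settings, here and above, thus have no background to be read against. The number of specific members in Parse mesPVAT was 1 at 5-fold, 1 with each nucleus named alone and 0 with unnamed nuclei as another class. In taPVAT it was 4 at 5-fold and 5 at Leiden resolution 0.5. In BAT it was 6 at 2-fold, 0 at 5-fold, 0 at resolution 0.5, 5 at resolution 2.0, 10 with each nucleus named alone, 5 without the top 5% of doublet scores, 6 without the cluster led by Eln and 5 without that led by Bcl6b. In cow WAT it was 0 with unnamed nuclei as another class. The other 30 alternatives stayed within 1.5 times the main count, and without the Prox1-led cluster it was 8 in 10x mesPVAT, 10 in taPVAT and 7 in cow WAT. Emcn and Vwf missed the limit in 10x mesPVAT against the floor of 3 counts.

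Thinned to 200 UMIs, the summed ratio with Plin1 was 0.316 in 10x mesPVAT, 0.373 in Parse mesPVAT, 0.748 in RP fat, 0.368 in BAT, 0.502 in taPVAT and 1.07 in cow WAT. The cow value lay on the other side of 1, but from only 26 co-detections against 24.4 expected. Cow nuclei counted once gave 0.658 at this depth. With Pdgfra the thinned sum was 0.577 in Parse mesPVAT and 0.679 in RP fat, where it had been above 1 (1.08 and 1.04), and 0.673 in BAT, 0.678 in taPVAT and 0.558 in cow WAT. With Notch3 it was 1.65 in Parse mesPVAT, 1.02 in RP fat and 0.786 in cow WAT. It lay on the other side of 1 in taPVAT (0.592) and BAT (0.664), from 18 against 30.4 and 22 against 33.1 co-detections. Counting once each nucleus with at least 2 members gave, with Plin1, 0.246 in 10x mesPVAT, 0.759 in BAT and 0.957 in cow WAT, with Pdgfra 1.07 in taPVAT and 0.921 in cow WAT, and with Notch3 1.02 in cow WAT, on the other side of 1. Asking for at least 4 other members in place of 2 raised the median ratio over members to 17.5 in 10x mesPVAT, 4.86 in Parse mesPVAT, 3.86 in RP fat, 27.6 in BAT, 15.3 in taPVAT and 9.19 in cow WAT.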
